A study of Mus musculus with 9 samples.

Results

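Mesenchymal stromal cells and fibroblasts are recognised by a small panel of surface antigens and marker genes, and 10 of them are described here in mouse cardiac fibroblasts, in cells described as such fibroblasts after dedifferentiation, and in embryonic stem (ES) cells. The panel holds Thy1, Ly6a, Nt5e, Cd44, Cd34, Vcam1, Cd248, Ddr2, Fap and S100a4. Genes were taken by symbol from the platform annotation. Of the 10 genes, 9 had a row that the annotation gives to 1 gene, out of 19938 genes in all, and each of the 9 had 1 row. Ly6a, which encodes the antigen Sca-1, had no such row and is not analysed here.

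The samples were dedifferentiated adult cardiac fibroblasts, C57 ES cells and adult cardiac fibroblasts, with 3 arrays of each. All 9 samples carry the strain label C57BL/6, and the series title calls the dedifferentiation protein-based. The labels name no extract, dose, time in culture or passage, and do not say whether samples of a group came from separate mice, clones or cultures, so the p-values rest on the spread among these arrays alone, and that spread may be technical. Total RNA was read on 1-colour Affymetrix Mouse Gene ST arrays, and values are log2 expression levels after RMA, the authors' background correction, normalization and probe summary. The median value of an array lay between 4.65 and 4.86, and the median of the gene means was 5.39. The number of arrays limits the precision.

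The group labels were set against marker genes. Of 8 fibroblast markers, 8 were lower in dedifferentiated cells and 8 lower in ES cells than in fibroblasts. Their mean level was 5.51 to 5.62 on the dedifferentiated arrays, 5.14 to 5.16 on the ES arrays and 10.99 to 11.12 on the fibroblast arrays. Of 7 pluripotency markers, 7 were higher in each comparison with fibroblasts. Pou5f1, which encodes Oct4, averaged 11.21 in dedifferentiated cells, 11.22 in ES cells and 3.39 in fibroblasts. Cardiomyocyte markers had 0 of 7 genes called by limma in each of the 3 comparisons. For 2, 2 and 3 of them the adjusted p was under 0.05, but the difference was under the 1 log2 unit required for a call. Their mean levels were 4.69 to 4.77, 4.62 to 4.74 and 4.70 to 4.88 on the dedifferentiated, ES and fibroblast arrays.

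These genes encode proteins of several kinds. Thy1, Nt5e and Ly6a proteins are held in the outer membrane by a lipid anchor; Cd44, Cd34, Vcam1 and Cd248 cross the membrane and bind matrix or other cells; Ddr2 is a receptor kinase for fibrillar collagen and Fap a membrane protease; S100a4 is a small calcium-binding protein inside the cell. None is restricted to fibroblasts: Cd34 also marks endothelial and blood-forming progenitor cells, Vcam1 inflamed endothelium, and Thy1 mouse T cells and neurons. In the reprogramming of mouse fibroblasts, loss of Thy1 from the surface is a known early step.

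The panel was lower in dedifferentiated cells than in fibroblasts, yet most of it stayed above the ES level. A gene was called where the limma test across all genes gave a Benjamini-Hochberg adjusted p under 0.05 and the group means differed by at least 1 log2 unit. Of the 9 genes, 7 were called lower and 0 higher in dedifferentiated cells than in fibroblasts (median difference -1.88), while 10.1% of all genes were called lower. With no minimum size, 8 of 9 passed the adjusted p, beside 22.4% of all genes. Against ES cells, 4 of 9 were called higher in dedifferentiated cells and 0 lower (median difference 0.90), where 1.01% of all genes were called higher. With no minimum size, 8 of 9 passed the adjusted p in that direction, beside 11.2% of all genes. In ES cells against fibroblasts, 8 of 9 were called lower (median difference -2.73), beside 10.4% of all genes, and 9 of 9 passed the adjusted p alone, beside 22.9%. The arrays did not overlap for 9 of 9 genes between dedifferentiated cells and fibroblasts and between ES cells and fibroblasts (25.8% and 24.4% of all genes were lower without overlap). Against ES cells, 8 of 9 lay higher in dedifferentiated cells without overlap, beside 16.9% of all genes. In ES cells only Thy1 (5.67) and Cd248 (6.07) averaged above the median gene level of 5.39. The other panel genes averaged 2.99 (Fap) to 5.15 (Vcam1) there. With no detection call, whether those ES levels exceed background was not tested. Both comparisons with fibroblasts share the same fibroblast arrays. In RNA from whole cultures, fewer cells that carry a transcript and less of it per cell cannot be told apart.

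**Figure D1:**
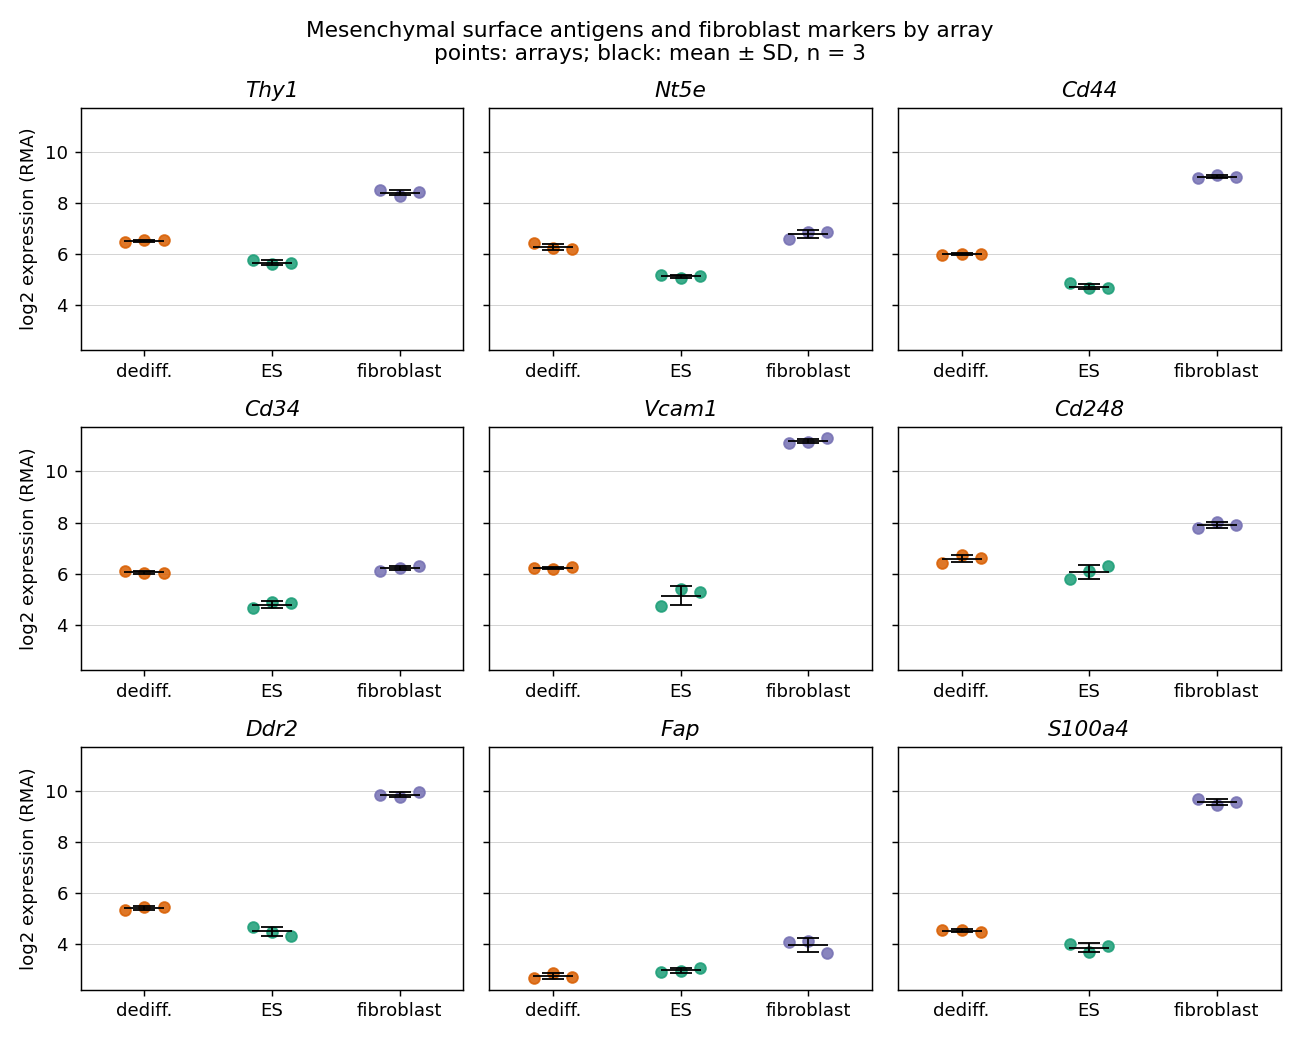
Log2 expression (vertical axis, RMA values) of the 9 measured genes on each array of dedifferentiated cells, ES cells and fibroblasts (points), with the mean and SD (n = 3). For Cd34 the dedifferentiated arrays (6.01 to 6.10) lie next to the fibroblast arrays (6.12 to 6.29) and above the ES arrays (4.64 to 4.88). For S100a4, Ddr2 and Vcam1 they also lie above the ES arrays, but nearer to them than to the fibroblast arrays.

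The lipid-anchored antigens took different positions between fibroblasts and ES cells. Thy1, an immunoglobulin-like protein that binds integrins, was at 6.46, 6.54 and 6.54 in dedifferentiated cells, at 5.76, 5.61 and 5.64 in ES cells and at 8.5, 8.29 and 8.41 in fibroblasts. The 3 groups did not overlap, and the dedifferentiated cells lay between the others. Thy1 fell by 1.88 log2 units against fibroblasts (95% interval -2.06 to -1.70, adjusted p = 3.1e-09), which is 3.68-fold lower. Against ES cells it differed by 0.85 (95% interval 0.67 to 1.02, adjusted p = 4.4e-05), a difference beyond the spread of the arrays but under 1 log2 unit. Nt5e encodes CD73, the enzyme that makes adenosine from AMP outside the cell. It was at 6.43, 6.22 and 6.21 in dedifferentiated cells, 5.17, 5.07 and 5.15 in ES cells and 6.60, 6.87 and 6.85 in fibroblasts. The dedifferentiated arrays were thus just below the fibroblast arrays and well above the ES arrays. Nt5e rose by 1.16 log2 units against ES cells (95% interval 0.95 to 1.37, adjusted p = 2.0e-05) and differed by -0.48 from fibroblasts (95% interval -0.69 to -0.27, adjusted p = 0.0012), which was not called.

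Among the adhesion receptors, Cd34 was the member nearest to its fibroblast level. Cd34, a sialomucin of progenitor and stromal cells, was at 6.10, 6.01 and 6.04 in dedifferentiated cells, 4.64, 4.88 and 4.85 in ES cells and 6.12, 6.23 and 6.29 in fibroblasts. All dedifferentiated arrays were below all fibroblast arrays, but the gap between the nearest of them was smaller than the range within either group. The difference from fibroblasts was -0.17 (95% interval -0.36 to 0.02, adjusted p = 0.15), so a fall of more than 0.36 log2 units lies outside the interval. Against ES cells Cd34 rose by 1.26 log2 units (95% interval 1.07 to 1.45, adjusted p = 6.1e-06), or 2.39-fold.

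Cd44, the main cell-surface receptor for the matrix sugar hyaluronan, gave with Cd34 the largest differences from ES cells in the panel (1.27 and 1.26). It was at 5.97, 6.02 and 6.02 in dedifferentiated cells, 4.85, 4.66 and 4.68 in ES cells and 8.97, 9.08 and 9.01 in fibroblasts, without overlap. It was 2.42-fold higher than in ES cells (1.27 log2 units, 95% interval 1.1 to 1.44, adjusted p = 3e-06) and 8.08-fold lower than in fibroblasts (-3.01 log2 units, adjusted p = 4.6e-11). Vcam1, a ligand for integrins on leukocytes, was at 6.23, 6.19 and 6.28 in dedifferentiated cells, 4.74, 5.40 and 5.30 in ES cells and 11.12, 11.16 and 11.30 in fibroblasts. ES replicate 1 was the lowest array. Vcam1 was 31.1-fold lower in dedifferentiated cells than in fibroblasts (-4.96 log2 units, 95% interval -5.28 to -4.64, adjusted p = 1.3e-10). Its rise of 1.08 log2 units against ES cells (95% interval 0.76 to 1.40, adjusted p = 3.8e-04) was 0.88 without ES replicate 1, which is under the size required for a call. Cd248, or endosialin, a lectin-like protein of stromal cells and pericytes, was at 6.43, 6.72 and 6.62 in dedifferentiated cells, 5.79, 6.12 and 6.30 in ES cells and 7.77, 8.01 and 7.92 in fibroblasts. It fell by 1.31 log2 units against fibroblasts (95% interval -1.60 to -1.03, adjusted p = 4.1e-06) and differed by 0.52 from ES cells (95% interval 0.24 to 0.81, adjusted p = 0.014).

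The collagen receptor and the calcium-binding protein were among the most strongly lowered genes. Ddr2 was at 5.34, 5.46 and 5.46 in dedifferentiated cells, 4.68, 4.50 and 4.35 in ES cells and 9.85, 9.76 and 9.95 in fibroblasts. It fell by 4.44 log2 units against fibroblasts (95% interval -4.65 to -4.23, adjusted p = 1.2e-11), and 126 of all genes had a more negative difference. S100a4, which binds non-muscle myosin and is also called fibroblast-specific protein, was at 4.57, 4.57 and 4.47 in dedifferentiated cells, 4.0, 3.70 and 3.94 in ES cells and 9.70, 9.46 and 9.56 in fibroblasts. It was 32.8-fold lower than in fibroblasts (-5.04 log2 units, adjusted p = 5.9e-12), and 77 genes had a more negative difference. Both genes remained above ES cells without overlap, Ddr2 by 0.90 (95% interval 0.69 to 1.12, adjusted p = 8.4e-05) and S100a4 by 0.66 (95% interval 0.45 to 0.87, adjusted p = 6.8e-04), neither enough for a call.

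Fap, a protease of activated fibroblasts, was dim in every group and was the only one of the 9 genes lower in dedifferentiated than in ES cells. It was at 2.68, 2.88 and 2.74 in dedifferentiated cells, 2.92, 2.96 and 3.09 in ES cells and 4.10, 4.15 and 3.66 in fibroblasts, all under the median gene level. It fell by 1.20 log2 units in dedifferentiated cells against fibroblasts (adjusted p = 6.0e-06), and the ES cells differed from fibroblasts by -0.98 (95% interval -1.25 to -0.70, adjusted p = 3.4e-05). The dedifferentiated and ES cells differed by -0.22 (95% interval -0.50 to 0.05, adjusted p = 0.27). Fibroblast replicate 3 was lower than the other fibroblast arrays, and without it the ES difference was -1.13, which passed the required size.

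For 4 of the 9 genes, Thy1, Cd44, Ddr2 and S100a4, 2 of the dedifferentiated arrays held exactly the same deposited value, so their small SDs are not a measure of precision. The moderated spread of the fit, pooled over the 9 arrays and all genes, was used for the intervals.

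**Figure D2:**
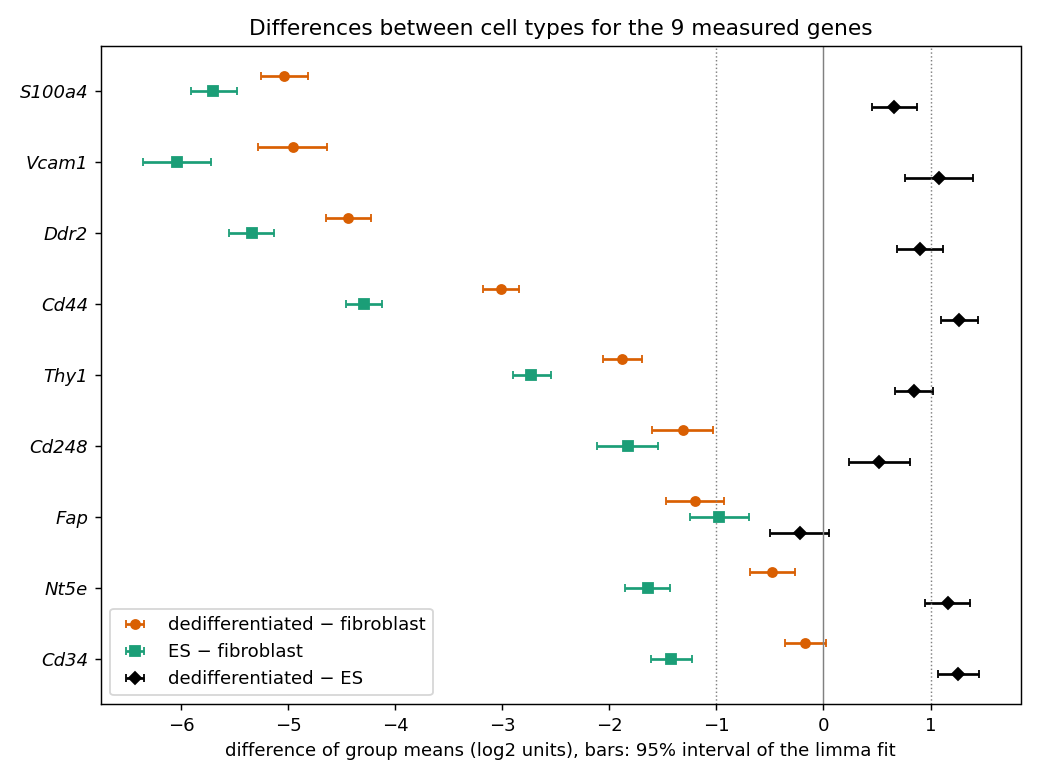
Differences of group means (horizontal axis, log2 units) with 95% intervals from the limma fit for the 9 measured genes, with dotted lines at 1 log2 unit. The differences between dedifferentiated cells and fibroblasts run from -5.04 for S100a4 to -0.17 for Cd34, while those between dedifferentiated and ES cells stay between -0.22 and 1.27.

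Each gene was then placed on its own scale, with the fibroblast mean at 0% and the ES mean at 100%. This covers the 8 genes called lower in ES cells than in fibroblasts. For those other than Thy1 and Cd248 the ES mean was under the median gene level. The dedifferentiated mean lay at 11.8% ± 3.2 for Cd34 and 29.4% ± 7.6 for Nt5e (SD over 3 dedifferentiated arrays). It lay at 68.9% ± 1.7 for Thy1, 70.3% ± 0.70 for Cd44 and 71.6% ± 8.0 for Cd248. For Vcam1, Ddr2 and S100a4 it lay at 82.1% ± 0.76, 83.1% ± 1.3 and 88.4% ± 0.93. These SDs leave out the spread of the fibroblast and ES arrays. For Thy1, Cd44, Ddr2 and S100a4 they are not a measure of precision, because 2 dedifferentiated arrays held equal values. The median of the 8 genes was 70.9%, and all 8 lay below the median of 94.1% over the 2073 genes called lower in ES cells (25th to 75th percentile 81.2% to 103.2%). Of those 2073 genes, 0.772% had a smaller share than Cd34 and 1.64% a smaller share than Nt5e. The share divides by the difference between ES cells and fibroblasts, which of the 8 was smallest for Cd34 (-1.42) and Nt5e (-1.64). It was largest for Vcam1 (-6.04), S100a4 (-5.70) and Ddr2 (-5.34), while Cd248, at -1.83, lay at 71.6%. The 2073 genes were not matched to the panel for the size of that difference. In dedifferentiated cells 4 of the 8 were called higher than in ES cells, against 3.81% of the same 2073 genes. A gene called lower in ES cells was not called lower in dedifferentiated cells for 14.5% of the 2073 and for 2 of the 8, Cd34 and Nt5e. Both conditions together were met by 1.69% and by the same 2 genes. The order fibroblast above dedifferentiated above ES, with no overlap of arrays, was met by 8 of the 9 genes and by 5.35% of all genes.

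**Figure D3:**
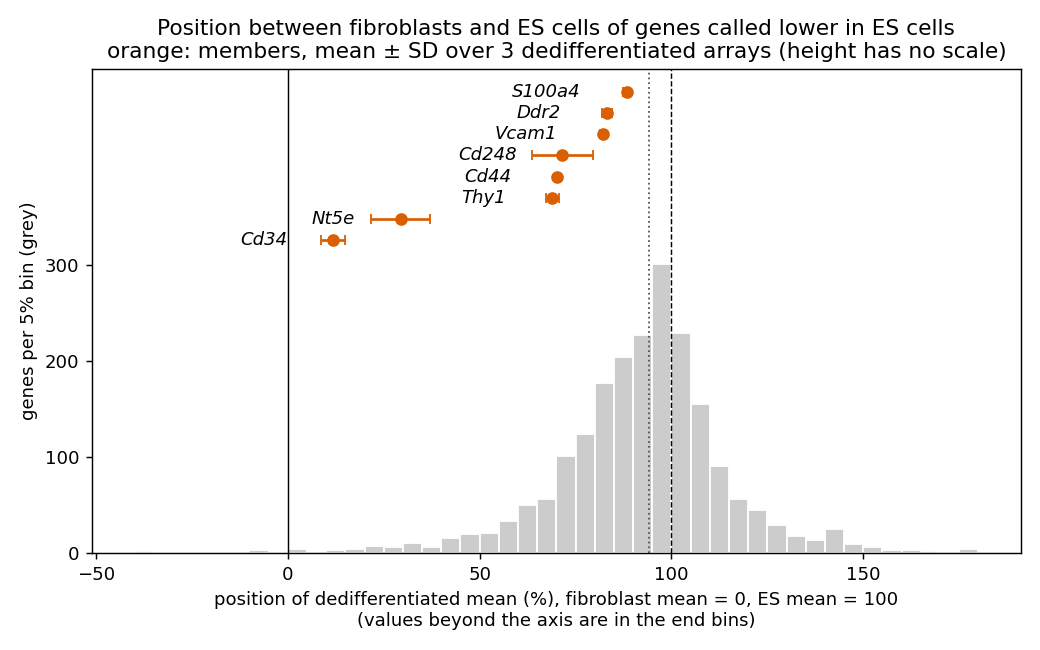
Position of the dedifferentiated mean between the fibroblast mean (0%) and the ES mean (100%) for the 2073 genes called lower in ES cells than in fibroblasts (grey, genes per bin of the horizontal axis, median dotted at 94.1%) and for the 8 genes of the panel among them (orange, mean and SD over 3 arrays; their height has no scale). Cd34 and Nt5e lie at 11.8% and 29.4%, and the other 6 genes between 68.9% and 88.4%.

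Promoter sequences are shown for the genes at the ends of that range, to set Cd34 and Nt5e beside S100a4. They run from 250 bases before to 50 bases after the RefSeq start in build GRCm38.p6, and 5 of the 9 genes (Cd34, Cd44, Ddr2, Nt5e and S100a4) had an entry. Capitals mark matches on either strand to the TATA box TATAAA, the CCAAT box, the GC box GGGCGG, the AP-1 site TGANTCA and the TEAD site GGAATG. The Cd34 window held none of these letters. The Nt5e window held 4 GGGCGG matches, all on the opposite strand and overlapping in pairs, and the S100a4 window a TATAAA whose first letter lies 31 bases before the start.
Cd34 (chr1:194938571-194938870, plus strand): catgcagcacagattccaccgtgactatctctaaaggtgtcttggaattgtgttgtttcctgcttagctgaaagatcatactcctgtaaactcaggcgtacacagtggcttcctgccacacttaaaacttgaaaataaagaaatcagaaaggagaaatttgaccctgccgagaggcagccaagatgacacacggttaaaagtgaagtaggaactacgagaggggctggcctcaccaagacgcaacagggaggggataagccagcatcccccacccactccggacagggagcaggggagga
Nt5e (chr9:88327359-88327658, plus strand): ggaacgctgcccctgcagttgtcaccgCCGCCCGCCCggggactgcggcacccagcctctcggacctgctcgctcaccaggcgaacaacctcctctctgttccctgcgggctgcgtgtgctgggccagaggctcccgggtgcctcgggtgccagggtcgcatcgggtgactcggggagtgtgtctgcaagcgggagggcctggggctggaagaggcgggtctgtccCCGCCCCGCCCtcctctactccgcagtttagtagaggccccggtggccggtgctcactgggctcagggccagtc
S100a4 (chr3:90603520-90603819, plus strand): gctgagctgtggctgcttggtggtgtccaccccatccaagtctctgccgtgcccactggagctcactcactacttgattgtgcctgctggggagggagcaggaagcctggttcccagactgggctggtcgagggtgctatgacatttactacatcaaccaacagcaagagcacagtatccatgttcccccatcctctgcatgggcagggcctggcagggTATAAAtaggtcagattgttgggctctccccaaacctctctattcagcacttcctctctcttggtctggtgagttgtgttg

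The Nt5e window had 71.0% G and C with a CpG frequency of 0.61 of that expected from its bases, and the S100a4 window 55.3% and 0.09, beside medians of 52.7% and 0.38 over 32851 promoters. The CpG frequency of the Cd34 window, at 0.37, was near that median. TATAAA was in 2 of the 5 windows (S100a4 and, farther from the start, Ddr2) and in 13.6% of all promoters. GGGCGG was in 2 of the 5 (Nt5e and Cd44) and in 35.7% of all. The CCAAT box, the AP-1 site and the TEAD site were in 0 of the 5, and in 37.4%, 7.81% and 14.7% of all promoters in that order. With no match in its window, Cd34 could share none of these motifs with Nt5e or any other gene.

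Among genes that work with these proteins or are related to them, 54 of 146 were lower than in fibroblasts. Against ES cells 6 of the 146 were called, all of them higher. Over 11 such lists, 146 of 161 genes were measured. Of the 146, 54 were lower and 11 higher in dedifferentiated cells than in fibroblasts (median -0.28), beside 10.1% and 8.79% of all genes. Against ES cells 6 were higher and 0 lower (median 0.02), beside 1.01% and 0.547% of all genes. In ES cells against fibroblasts 58 were lower and 12 higher (median -0.36), beside 10.4% and 8.85%. The median over all genes was 0.01, 0.00 and 0.02 in these 3 comparisons.

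The list around Cd44 holds genes for making, binding and breaking down hyaluronan, and partners of Cd44 itself. Of 19 measured genes, 7 were lower and 2 higher in dedifferentiated cells than in fibroblasts (median -0.10). The 2 higher ones, Ezr and Esrp1, act on Cd44 and not on hyaluronan. Has2, a hyaluronan synthase, was at 6.18, 5.95 and 6.16 in dedifferentiated cells, 4.76, 4.66 and 4.44 in ES cells and 8.62, 8.32 and 8.60 in fibroblasts. Like Cd44, it lay between the other groups without overlap. It was the 1 gene of the list called higher than in ES cells (1.48 log2 units, 95% interval 1.23 to 1.73), and it fell by 2.42 against fibroblasts. Cemip, needed for the breakdown of hyaluronan, fell by 5.59 log2 units, the hyaluronan-modifying protein Tnfaip6 fell by 5.40, and Mmp14, a protease that cuts Cd44, fell by 3.40. Of the proteins that tie Cd44 to actin, the Msn gene fell by 2.53 and the Ezr gene rose by 2.01, while Rdx differed by 0.08. Esrp1, a splicing factor that controls the variant exons of Cd44, rose by 4.41. The Cd44 value summarises its probe set over the transcript, so splice forms were not measured.

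Partners of Vcam1 and Thy1 included several lowered integrins. Of 14 adhesion and NF-kB genes set beside Vcam1, 6 were lower and 2 higher than in fibroblasts (median -0.50). Itga4, which pairs with Itgb1 to form the Vcam1 receptor VLA-4, fell by 3.76 log2 units against fibroblasts, and Itgb1 fell by 1.74. The integrin Itga9 fell by 2.91 and the adhesion protein Ncam1 fell by 2.53, and Mcam rose by 1.90. Irf1, an interferon-induced factor that can activate Vcam1, rose by 1.29 against fibroblasts and by 1.01 against ES cells. Both calls were lost with the mean of the gene's 2 rows, which left 1 and 0 of 14 genes called higher. The call against ES cells was also lost after quantile normalization, without dedifferentiated replicate 1 or 2 (0.94 and just under 1) and without ES replicate 2 or 3 (0.98 and 0.94). Of 10 Thy1 partners, 4 were lower and 0 higher than in fibroblasts (median -0.91): the integrins Itgb5 (-2.94), Itgam (-1.77, a leukocyte integrin) and Itgav (-1.69) and the proteoglycan Sdc4 (-1.54). Against ES cells limma called 0 of the 10, with 5 at an unadjusted p under 0.05 and 1 at an adjusted p under 0.05.

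Among relatives of the panel, Podxl and Thbd stood apart from Cd34 and Cd248. Podxl, a sialomucin related to Cd34, was at 9.34, 9.45 and 9.49 in dedifferentiated cells, 8.99, 9.08 and 9.16 in ES cells and 4.12, 4.20 and 4.17 in fibroblasts. It rose by 5.26 log2 units against fibroblasts and differed by 0.35 from ES cells. Thbd, or thrombomodulin, belongs to the same lectin-like family as Cd248 and was at 7.61, 7.90 and 7.99 in dedifferentiated cells, 5.30, 5.11 and 5.41 in ES cells and 8.80, 8.70 and 8.85 in fibroblasts. It was 5.90-fold higher than in ES cells (2.56 log2 units, 95% interval 2.32 to 2.81, adjusted p = 3.7e-07) and differed by -0.95 from fibroblasts. Ddr1, the other collagen receptor kinase, fell by 1.39 against fibroblasts, less than the 4.44 of Ddr2. Of the 12 genes in the Ddr2 list, 8 were lower (median -2.13). Its collagen genes ranged widely: Col3a1 fell by 6.67, Col1a2 fell by 5.69, Col1a1 fell by 5.47 and Col5a1 fell by 2.93, while Col2a1 differed by -0.39 and Col10a1 by 0.02. Dpp4, the closest relative of Fap, differed by 0.43 (95% interval 0.19 to 0.67), and Dpp8 was the 1 gene that fell (-1.75) among 9 relatives and substrates of Fap. For comparison, 10.1% of all genes were called lower than in fibroblasts and 8.79% higher. In the Cd34 list of relatives and binding partners, 1 of 4 rose (Podxl) and 1 fell, the endothelial selectin Sele (-1.38). In the Cd248 list of relatives and a ligand, 1 of 4 fell, the endothelial protein Cd93 (-1.53). Both falls left the test under the filters on dim genes, and without dedifferentiated replicate 3 Thbd passed too (-1.03), which made 2 of 4.

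In the S100 list, 6 of 17 genes were lower and 0 higher in dedifferentiated cells than in fibroblasts (median -0.12). S100a16 fell by 3.93, S100a6 fell by 2.87 and S100a11 fell by 1.46. The S100a4 partner Myh9, a non-muscle myosin, fell by 1.48. S100a6 was at 9.08, 9.08 and 9.10 in dedifferentiated cells, 8.56, 8.71 and 8.50 in ES cells and 11.98, 11.92 and 11.97 in fibroblasts, in the same order as S100a4. S100a10 differed by -0.09 (95% interval -0.26 to 0.09). Of the Ly6 and uPAR family, 19 genes were measured. Against fibroblasts 3 of the 19 were called lower, beside 10.1% of all genes: Cd59a (-1.86), Ly6e (-1.75) and Ly6k (-1.40). The medians of that list were 0.02 against fibroblasts and -0.03 against ES cells. Plaur, the urokinase receptor, was at 9.59, 9.69 and 9.65 in dedifferentiated cells, 8.31, 8.90 and 8.80 in ES cells and 8.88, 8.78 and 8.76 in fibroblasts. It was above both other groups, by 0.98 over ES cells and 0.84 over fibroblasts, and called in neither comparison. Against ES cells it was called without ES replicate 2 (1.09), without ES replicate 3 (1.04) or without dedifferentiated replicate 1 (1.0). Ly6c1 had no row of its own.

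Along the adenosine pathway of Nt5e, 9 of 15 genes were measured. Enpp3, which splits extracellular nucleotides, rose by 3.21 log2 units against fibroblasts and by 1.05 against ES cells, the second call being lost without ES replicate 1 (0.98, with 0 of 9 genes called higher). The nucleoside transporter Slc29a1 rose by 1.33 and the adenosine-degrading enzyme Ada fell by 1.95 against fibroblasts. Entpd1, which makes the AMP that Nt5e uses, differed by -0.16 (95% interval -0.34 to 0.02). Adora2b, an adenosine receptor, had no row with 1 symbol.

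**Figure D4:**
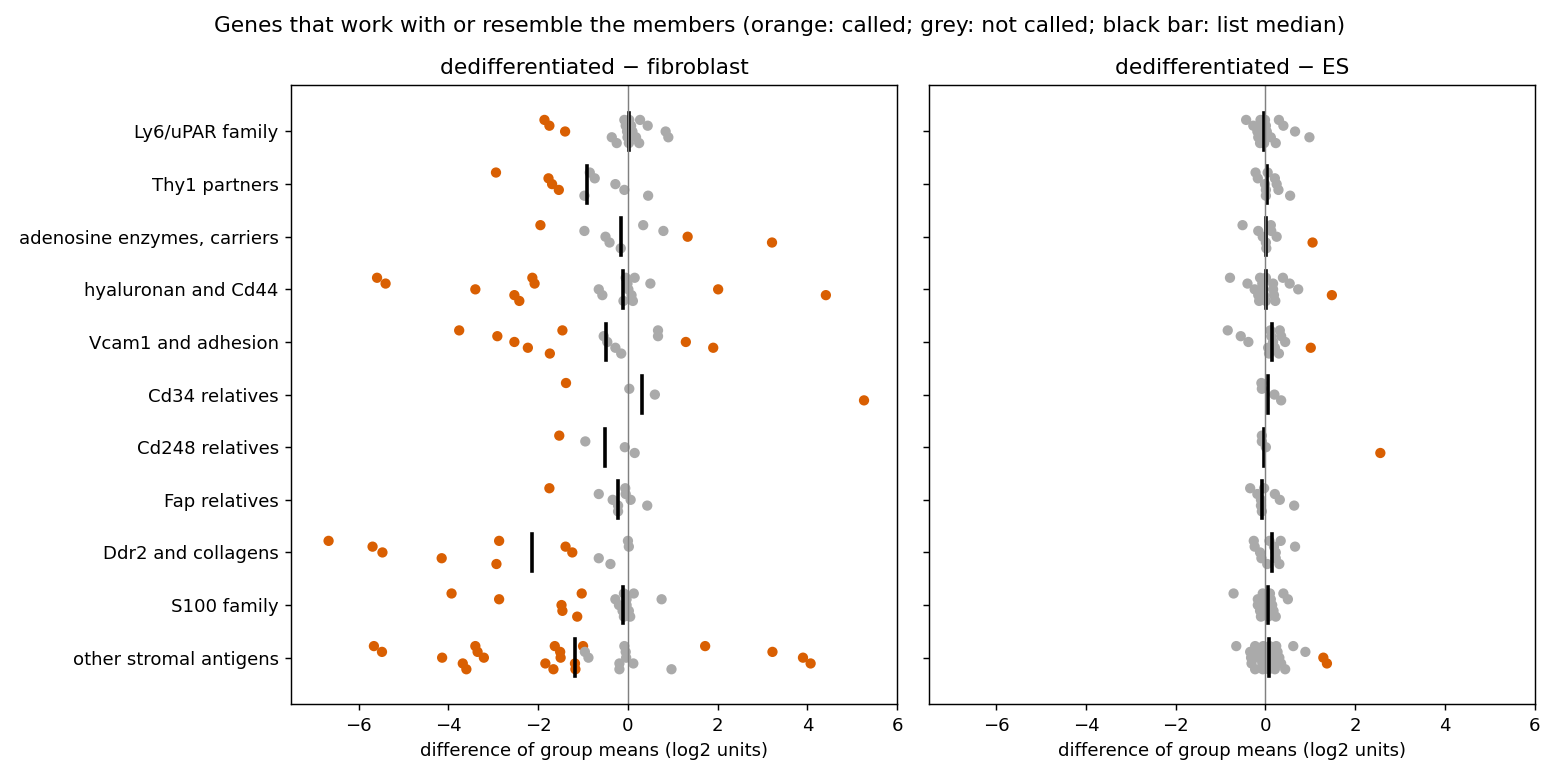
Differences of group means (horizontal axis, log2 units) between dedifferentiated cells and fibroblasts (left) and between dedifferentiated and ES cells (right) for the measured genes of the 11 partner and relative lists, with called genes in orange and the list median as a black bar. Against fibroblasts 54 genes are called lower and 11 higher, and against ES cells 6 higher and 0 lower.

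Other surface antigens used for stromal cells included growth factor receptors, integrins and peptidases. Of 29 measured, 16 were lower and 4 higher in dedifferentiated cells than in fibroblasts (median -1.17). The growth factor receptor Pdgfrb fell by 5.66, the oncostatin receptor Osmr fell by 5.48, the cadherin Cdh11 fell by 4.14 and endoglin (Eng) fell by 3.68. The integrin Itga6, the peptidase Mme and the mucin-like Cd24a rose by 4.07, 3.90 and 3.22. Against ES cells 2 of 29 were called higher and 0 lower (median 0.07). Pdgfra was at 8.83, 9.0 and 9.04 in dedifferentiated cells, 7.22, 7.61 and 7.95 in ES cells and 10.77, 10.76 and 10.88 in fibroblasts. It rose by 1.37 log2 units against ES cells. Procr, the protein C receptor, was at 6.98, 6.97 and 7.14 in dedifferentiated cells, 5.36, 5.72 and 6.15 in ES cells and 7.24, 7.08 and 6.92 in fibroblasts. The dedifferentiated and fibroblast arrays overlapped, as they nearly did for Cd34, and Procr rose by 1.29 against ES cells (95% interval 0.93 to 1.65, adjusted p = 2.9e-04).

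Some endothelial and smooth muscle markers were also higher in dedifferentiated than ES cells. Of 8 endothelial markers, 2 were called higher than in ES cells: the endothelial cadherin Cdh5 by 1.38 and the adhesion protein Esam by 1.07. Over all genes 1.01% were called higher in that comparison. The mean level of the list was 5.46 to 5.58 on the dedifferentiated arrays, 4.97 to 5.02 on the ES arrays and 4.70 to 4.93 on the fibroblast arrays. Cdh5 was at 5.64, 5.82 and 5.85 in dedifferentiated cells, 4.31, 4.43 and 4.42 in ES cells and 4.72, 4.49 and 4.62 in fibroblasts. The marker Pecam1 differed by -0.05 between dedifferentiated and ES cells. Of the 8 fibroblast markers, 2 exceeded the ES cells, Pdgfra and the proteoglycan Dcn (by 1.20), while Col1a1 differed by 0.31 (95% interval 0.04 to 0.59, adjusted p = 0.11) and Tcf21 by 0.02. Smooth muscle markers had 1 of 4 higher, Cnn1 by 1.53, with a list level of 7.11 to 7.31, 6.59 to 6.73 and 9.57 to 9.70 on the dedifferentiated, ES and fibroblast arrays. Leukocyte and pericyte markers had 0 of 7 and 0 of 6 genes called by limma in that comparison. In those lists 1 and 2 genes had an adjusted p under 0.05, each lower in dedifferentiated cells by less than 1 log2 unit. At an unadjusted p under 0.05 there were 1 and 3. Their list levels were 4.42 to 4.51 and 5.20 to 5.23 on the dedifferentiated arrays. The levels were 4.58 to 4.69 and 5.41 to 5.58 on the ES arrays, and 5.68 to 5.76 and 4.74 to 4.85 on the fibroblast arrays. Epicardial markers had 0 of 5 called and 0 at an unadjusted p under 0.05. Ptprc, the common leukocyte antigen, averaged 3.59, 3.74 and 4.42 in the same groups. The part of such cells in the values of Cd34, Nt5e, Cd44 and Vcam1 was not tested.

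Against fibroblasts, some markers of other cells fell in dedifferentiated cells and others rose. Over all genes 10.1% were called lower and 8.79% higher. Of 7 leukocyte markers, 2 were lower in dedifferentiated cells, Lyz2, the lysozyme of macrophages and neutrophils (-5.65), and Itgam (-1.77), and 1 was higher, Cd68 (1.05). Lyz2 averaged 3.20 in dedifferentiated cells, 3.34 in ES cells and 8.85 in fibroblasts. Of 4 smooth muscle markers 3 were lower, Tagln (-3.76), Acta2 (-3.72) and Cnn1 (-1.47), the first 2 of which activated fibroblasts also express. Of 5 epicardial markers 2 were lower, Upk3b (-1.38) and Upk1b (-1.13), and 1 was higher, Krt19 (2.84). Of 8 endothelial markers 4 were higher, Pecam1 (2.44), Esam (1.65), Cdh5 (1.16) and Tek (1.06), and 1 was lower, Emcn (-1.36). Of 6 pericyte markers 1 was higher, Mcam (1.90), and 0 were lower. In ES cells against fibroblasts Pecam1 (2.48), Cd68 (1.75), Mcam (2.74) and Krt19 (2.80) were also called higher. Esam (0.59), Cdh5 (-0.22) and Tek (0.12) were not called there. The markers listed here as lower were also called lower in ES cells than in fibroblasts. The part of these other cell types in the falls of Vcam1, S100a4, Ddr2, Cd44, Thy1, Cd248 and Fap was not tested.

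The genes most alike to each member were found by the root mean square difference of profiles over the 9 arrays, each centred on its own mean. For Cd34 they were Hmox1, a haem-degrading enzyme (0.12 log2 units), and Acvr1, a BMP receptor (0.13). Nt5e was nearest to Epha7 and Cbr3 (0.13 and 0.15), and within the panel to Cd34 (0.17). Cd44 was nearest to Itpripl2 and Mical2 (0.17 each), Vcam1 to Csf1 and Inhba (0.17 and 0.19), and Thy1 to Rexo2 and Cd80 (0.07 and 0.09). The collagen chaperone Serpinh1 and the basement membrane protein Nid1 lay nearest to Cd248 (0.06 and 0.08), Fads3 and the cadherin Cdh2 to Ddr2 (0.11 and 0.17), Dlg2 and Vgll4 to Fap (0.10 and 0.11), and Tmem176b and the mesenchymal factor Prrx1 to S100a4 (0.09 and 0.12). Ddr2 and S100a4 were each other's nearest panel gene (0.27), and Vcam1 and Cd34 were the most distant pair (2.22).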

How the data were processed

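The deposited values are log2 expression values of 35557 probe sets on 9 arrays; per the submitters' processing notes the authors made them with RMA in Affymetrix Expression Console 1.1. RMA makes the probe intensities of the arrays share 1 distribution before the probe summary, so a general shift of all transcripts would not be seen. The summarised values do not share 1 exactly, with array medians of 4.65 to 4.86. No genome build is given in the sources used here, and no detection call comes with the values.

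Groups came from sample titles; the source label of the fibroblasts also mentions ES cells. Rows were named by the platform annotation (21789 with 1 symbol, 1621 with several, 12147 not listed), 21698 matched the RefSeq table of GRCm38.p6 by Entrez ID, and the row with the highest mean was kept for each of 999 genes with several rows. The 9 arrays entered 1 fit in limma 3.58.1 (R 4.3.3), without a replicate block, tested on simulated data. The members, lists and tests were chosen with earlier results of these data known. Named genes were the members, up to 3 called rises and 3 falls per list and comparison, a fixed list, and the 2 most alike genes per member. In the text Rdx, S100a10, Pecam1, Tcf21, Dcn, Col5a1, Col2a1, Col10a1, Lyz2, Cd68, Tagln, Acta2, Cnn1, Upk3b, Upk1b, Krt19, Emcn, Cdh5, Esam and Tek come from the lists and were picked with their values known. Alternatives changed the normalization, filter on dim genes, rows per gene, variance model, arrays and thresholds.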

Additional observations from a re-analysis of the deposited data

How the results depend on the processing

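In 20 alternatives that kept the thresholds, the panel's counts were 6 to 7 lower in dedifferentiated cells than in fibroblasts, 3 to 4 higher than in ES cells and 8 to 9 lower in ES cells than in fibroblasts; the filters on dim genes, which remove Fap, gave the 6. No difference of the 9 genes changed sign. Vcam1 against ES cells was under 1 log2 unit with array weights (0.90) and without ES replicate 1 (0.88), and Fap in ES cells passed it without ES replicate 3 (-1.03) or fibroblast replicate 3 (-1.13). Cd248 against ES cells had an adjusted p of 0.0022 to 0.063. With no minimum difference, 8 panel genes were higher than in ES cells. The partner lists then gave 24 higher and 73 lower in dedifferentiated cells than in fibroblasts, and 26 higher and 13 lower than in ES cells. In ES cells against fibroblasts they gave 23 higher and 75 lower. All genes gave 4468 lower and 4977 higher, 2003 lower and 2236 higher, and 4570 lower and 5203 higher, in the order dedifferentiated minus fibroblast, dedifferentiated minus ES and ES minus fibroblast. After quantile normalization the position of Cd34 was 7.14%, that of Cd44 69.2% and that of Vcam1 80.8%. Leaving out each array gave 9.41% to 14.5% for Cd34, 27.1% to 33.8% for Nt5e, 67.2% to 77.5% for Cd248, 67.8% to 69.7% for Thy1, 69.3% to 70.9% for Cd44, 80.4% to 84.9% for Vcam1, 81.7% to 84.3% for Ddr2 and 87.5% to 89.9% for S100a4. The replicate block kept the panel's counts at 7, 4 and 8; same-numbered arrays correlated at -0.204 to 0.25 in their deviations, and each array's highest correlation was with the same number in 9 of 18 cases. Differently numbered arrays correlated at -0.241 to 0.324. Between dedifferentiated and fibroblast arrays the same-numbered pairs stood at 0.101, 0.154 and 0.038, and the others at -0.118 to 0.043. The labels state no pairing, so whether arrays of like number belong together is not known. Alternatives for the partner lists were added after seeing the data. Where no alternative is named, the cause of a change was not tested.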

Other observations

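Equal deposited values were more frequent among the dedifferentiated arrays. At least 2 of the 3 arrays of a group held the same value for 16.8% of the 19938 genes in dedifferentiated cells, 11% in ES cells and 9.43% in fibroblasts. Pairs of dedifferentiated arrays shared the value of 7.39% to 7.63% of genes, pairs of ES arrays 3.93% to 5.35% and pairs of fibroblast arrays 3.41% to 4.95%, while pairs of arrays of different groups shared 2.59% to 5.56%. No pair of arrays was identical over the whole table.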
